A study of Homo sapiens with 6 samples.

Results

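HMC3 cells are a human microglial line that grows in culture without limit. Long reads of their amplified, polyadenylated RNA were made on Oxford Nanopore flow cells for 3 control libraries (0 Gy) and 3 libraries from cultures given 15 Gy of X-rays, each from an independent culture collected after 24 h. Both groups were the same cell line in the same medium, no other treatment is given in the labels, and the comparison asks how radiotherapy changed these RNAs. A set of 37 genes is described here, of 31768 genes in the files, chosen by name as the transcription factor NRF2 (gene NFE2L2), its inhibitor KEAP1, NRF2 target genes, enzymes that remove peroxide and superoxide, and the subunits of ferritin. All transcript rows carrying these names were taken, 291 of 153848, and summed per gene.

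NRF2 is a transcription factor that KEAP1 holds in the cytoplasm and marks for degradation. Oxidants and electrophiles modify KEAP1, NRF2 then reaches the nucleus and binds antioxidant response elements, short motifs in the promoters of detoxification and glutathione genes. Peroxiredoxins and glutathione peroxidases reduce peroxides, with thioredoxin and glutathione as electron donors, and catalase also removes peroxide. Ferritin, a shell of heavy and light chains, stores iron that would otherwise react with peroxide. Microglia take up iron and release oxidants, and the same systems limit oxidative damage within them.

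Library totals ran from 4870897 to 9082409 counts, of which the 37 genes held 1.27 to 1.45%. TMM factors, which scale libraries by the bulk of the genes, were 0.793 to 0.928 in controls and 1.09 to 1.24 in irradiated libraries. Among the microglia and macrophage markers examined, CD68 exceeded 10 CPM (a count divided by the library's TMM-scaled size) and 7, including CX3CR1, P2RY12, TMEM119 and ITGAM, had no row in the table used here. Of 10 fibroblast and pericyte markers, 3 exceeded 10 CPM, with a summed level of 332 to 356 CPM in controls and 304 to 360 CPM in irradiated libraries. Within that sum THY1 averaged 133 CPM in controls and 85.9 CPM in irradiated libraries, ACTA2 4.37 and 14.9 CPM, and MCAM 17.1 and 27.1 CPM, each without overlap between the groups, and their part in the results below was not tested. COL3A1 and LUM had no row either. The cells are named below by the line and not by a cell type. Control 3 correlated more closely with the irradiated libraries (Pearson's r 0.959 to 0.973 across genes, which are not independent replicates) than controls 1 and 2 did (0.919 to 0.950). In bulk RNA, fewer cells of a kind and less RNA per cell cannot be told apart.

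Of the 37 genes, 32 passed the filter on low counts and were tested among 11118 genes with edgeR's quasi-likelihood test and Benjamini-Hochberg adjustment, where rose and fell mean an adjusted p under 0.05. NFE2L2, KEAP1 and GSR rose, which is 3 of 32 against 11.6% of all genes tested. Lower counts were found in 14 of 32 against 14.1% of all genes: the ferritin light chain FTL, the peroxiredoxins PRDX1 to PRDX5, GPX4, TXN, GLRX, GSTP1, MGST1, MGST3, SOD1 and PARK7. The other 15 did not pass, among them NQO1, HMOX1, GCLC, GCLM, TXNRD1 and FTH1. The median log2 fold change was −0.32 over the 32 genes and 0.08 over all genes. At an unadjusted p under 0.05, 4 of 32 were higher and 21 lower, against 2182 and 2148 of all 11118 genes. DESeq2 gave 2 higher and 17 lower, against 9.77% and 14.9% of all genes. Only PRDX4 and FTL also passed the limit of 1 on the log2 scale that defines a differentially expressed gene, against 1.70% of all genes on the lower side and 4.0% on the higher.

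The groups did not overlap, lower in irradiated libraries, in 21 of the 32 genes, and higher in 3, against 21.3% and 21.5% of all genes tested.

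**Figure D1:**
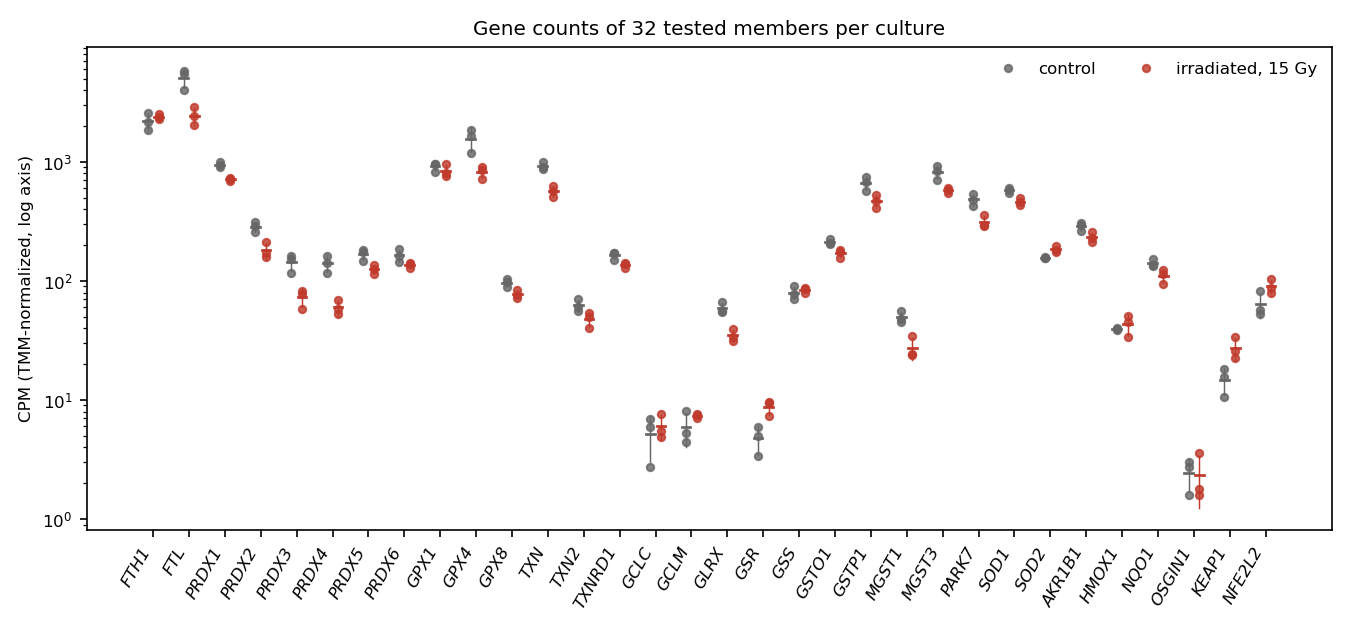
Each point is the CPM of a gene in 1 library (log axis), grey for control and red for irradiated, with the mean as a horizontal line and the SD of 3 cultures as a vertical line. FTL fell from 5103 to 2441 CPM while FTH1 averaged 2197 and 2384 CPM.

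KEAP1 and NFE2L2, the inhibitor and the transcription factor, were described first. KEAP1 is on chromosome 19, 10486120 to 10503741 (GRCh38, GENCODE release 29, as for the other genes), and measured 18.1, 10.6 and 15.7 CPM in controls 1 to 3 and 33.9, 22.4 and 25.7 CPM in irradiated libraries 1 to 3, so each irradiated library was above each control. It rose 1.85-fold (log2 fold change 0.90 ± 0.232 SE, adjusted p = 0.0104 with edgeR). The adjusted p (edgeR) was 0.051 without control 2 and 0.0679 without irradiated library 1.

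NFE2L2 lies on chromosome 2 from 177227595 to 177392697 and measured 52.9, 57.5 and 81.7 CPM in controls and 78.8, 87.9 and 104 CPM in irradiated libraries. Control 3 lay above irradiated library 1, so the groups overlapped. It rose 1.41-fold (log2 fold change 0.48 ± 0.167 SE, adjusted p = 0.0438 with edgeR). The call did not pass without control 1 (adjusted p = 0.156), control 2 (0.131), irradiated library 2 (0.0698) or irradiated library 3 (0.196), all from edgeR, nor with RLE size factors (0.0509) or when genes with 1 kept transcript were admitted (0.057).

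NRF2 target enzymes of quinone, heme and carbonyl metabolism came next, and none of the 4 tested passed. NQO1, a quinone reductase often read as the marker of NRF2 activity, averaged 141 ± 9.71 CPM (SD, n = 3) in controls and 111 ± 14.7 CPM (SD, n = 3) in irradiated libraries, with no overlap (log2 fold change −0.34 ± 0.130 SE, adjusted p = 0.063 with edgeR). It passed under DESeq2 (adjusted p = 0.0329), with RLE size factors (0.0459, edgeR) and with the replicate number as a block (0.0316, edgeR), lower in each. HMOX1, heme oxygenase 1, averaged 39.6 ± 1.12 and 43.2 ± 8.45 CPM (SD, n = 3 each; log2 fold change 0.13), and AKR1B1, an aldose reductase, 288 ± 24.4 and 233 ± 22.1 CPM (SD, n = 3 each; −0.30, adjusted p = 0.0706, edgeR). AKR1B1 passed with DESeq2 (adjusted p = 0.0385), without control 3 (0.0137, edgeR) and without irradiated library 2 (0.0493, edgeR), lower in each. With the replicate number as a block it passed as well, also lower (adjusted p = 0.0344, edgeR). OSGIN1 stayed under 4 CPM in every library and was measured with few reads.

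Among the glutathione synthesis and recycling genes, GSR rose, GLRX fell and GSS, GCLC and GCLM did not pass. GSR, glutathione reductase, which regenerates glutathione from its oxidized form, lies on chromosome 8 from 30678061 to 30727999. It measured 5.02, 3.37 and 5.93 CPM in controls and 7.36, 9.57 and 9.46 CPM in irradiated libraries, with every irradiated library above every control. It rose 1.84-fold (log2 fold change 0.88 ± 0.303 SE, adjusted p = 0.0441 with edgeR), on 20 to 77 counts per library. The call passed in 6 of 13 alternatives. The adjusted p (edgeR) was 0.0691 without control 1, 0.157 without control 2, and 0.064, 0.112 and 0.132 without irradiated libraries 1, 2 and 3, and DESeq2 gave 0.0794.

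GLRX, glutaredoxin, which reduces glutathione-protein disulfides, measured 56.4, 66.2 and 54.4 CPM in controls and 31.4, 39.5 and 34.1 CPM in irradiated libraries, without overlap. It fell by 0.75 log2 units (SE 0.156, adjusted p = 0.00291 with edgeR). GSS, glutathione synthetase, averaged 79.8 ± 9.45 and 83.8 ± 3.83 CPM (SD, n = 3 each), and GCLC and GCLM, the catalytic and modifier subunits of glutamate-cysteine ligase, stayed under 9 CPM in every library.

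The thioredoxin system gave values on the lower side. TXN, thioredoxin 1, on chromosome 9 from 110243811 to 110256640, measured 913, 993.5 and 865 CPM in controls and 504, 625 and 565 CPM in irradiated libraries, and the lowest control exceeded the highest irradiated library. It fell 1.64-fold (log2 fold change −0.71 ± 0.121 SE, adjusted p = 0.00107 with edgeR). TXNRD1, its cytosolic reductase, averaged 165 ± 12.3 and 137 ± 6.77 CPM (SD, n = 3 each; log2 fold change −0.27, adjusted p = 0.0995, edgeR), and TXN2, the mitochondrial thioredoxin, 62.3 ± 7.31 and 47.9 ± 6.79 CPM (SD, n = 3 each; −0.38, adjusted p = 0.0811, edgeR). Without control 3 both passed (TXNRD1 −0.36, adjusted p = 0.0214, and TXN2 −0.48, adjusted p = 0.0289, edgeR).

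Peroxiredoxins, the abundant thiol peroxidases, held 5 calls on the lower side among 6 genes. PRDX4, the endoplasmic reticulum member, had the lowest log2 fold change of the 32 genes. It lies on chromosome X from 23664262 to 23686399 and measured 142, 163 and 118 CPM in controls and 52.7, 69.7 and 57.6 CPM in irradiated libraries, without overlap. It fell 2.35-fold (log2 fold change −1.23 ± 0.151 SE, adjusted p = 0.000301 with edgeR), and was called in all 13 alternatives.

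PRDX3, the mitochondrial member, measured 154, 161 and 117 CPM in controls and 58.2, 82.7 and 77.6 CPM in irradiated libraries. It fell 1.98-fold (log2 fold change −0.98 ± 0.157 SE, adjusted p = 0.000787 with edgeR), and control 3, the lowest control, was still above every irradiated library. PRDX2, cytosolic, measured 288, 311 and 257 CPM in controls and 160, 213 and 172 CPM in irradiated libraries, without overlap, and fell by 0.65 log2 units (SE 0.131, adjusted p = 0.00246 with edgeR).

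PRDX1, also cytosolic, measured 948, 992 and 901 CPM in controls and 693, 737 and 721 CPM in irradiated libraries, and fell by 0.40 log2 units (SE 0.111, adjusted p = 0.0153 with edgeR). PRDX5, found in mitochondria and peroxisomes, measured 174, 182 and 148 CPM in controls and 115, 137 and 126 CPM in irradiated libraries, and fell by 0.41 log2 units (SE 0.126, adjusted p = 0.0249 with edgeR). Neither pair of groups overlapped. These calls were less steady than those of PRDX2 to PRDX4. PRDX1 gave an adjusted p (edgeR) of 0.0662 without control 1, 0.0633 without irradiated library 1 and 0.0739 without irradiated library 3. PRDX5 gave 0.0802 and 0.0991 without controls 1 and 2, and 0.112 and 0.0853 without irradiated libraries 1 and 3. PRDX6, which works with glutathione, averaged 164 ± 19.3 and 136 ± 7.34 CPM (SD, n = 3 each; log2 fold change −0.27, adjusted p = 0.113, edgeR), and passed without control 3 (−0.38, adjusted p = 0.0201, edgeR).

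Among the glutathione peroxidases, GPX4, which reduces lipid hydroperoxides in membranes and guards against ferroptosis, fell. GPX4 lies on chromosome 19 from 1103926 to 1106791. It measured 1867, 1646 and 1186 CPM in controls and 715, 909 and 854 CPM in irradiated libraries, with control 3 nearest to the irradiated range but above it. It fell 1.90-fold (log2 fold change −0.92 ± 0.156 SE, adjusted p = 0.00102 with edgeR). GPX1, the cytosolic enzyme, averaged 918 ± 80.2 and 840.5 ± 102 CPM (SD, n = 3 each), with overlapping groups (log2 fold change −0.13, adjusted p = 0.482, edgeR). GPX8, a membrane protein of the endoplasmic reticulum, averaged 96.9 ± 7.65 and 77.6 ± 6.31 CPM (SD, n = 3 each; −0.32, adjusted p = 0.0757, edgeR).

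GPX1, GPX4 and TXNRD1 are selenoproteins, in which an in-frame TGA is read as selenocysteine. The codons are shown because these members share this feature and differed in their calls. The capitals mark the codon in the coding strand (GRCh38, GENCODE release 29), at chr3:49358132-49358134 on the minus strand, chr19:1105403-1105405 and chr12:104348413-104348415 on the plus strand.
GPX1: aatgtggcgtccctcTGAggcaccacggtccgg
GPX4: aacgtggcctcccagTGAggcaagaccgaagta
TXNRD1: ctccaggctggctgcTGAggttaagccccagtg
Among them GPX4 fell, and GPX1 and TXNRD1 did not pass.

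Glutathione transferases join glutathione to electrophiles or, in the membrane forms, also reduce peroxides, and 3 of 4 fell. MGST1 measured 45.7, 55.8 and 48.1 CPM in controls and 23.9, 34.2 and 24.3 CPM in irradiated libraries, and fell by 0.86 log2 units (SE 0.178, adjusted p = 0.0029 with edgeR). MGST3 measured 838, 933 and 712 CPM in controls and 546, 600.4 and 583 CPM in irradiated libraries, and fell by 0.52 log2 units (SE 0.124, adjusted p = 0.00657 with edgeR). GSTP1, a cytosolic enzyme of the pi class, measured 676, 754 and 574 CPM in controls and 410.2, 523 and 466 CPM in irradiated libraries, and fell by 0.52 log2 units (SE 0.132, adjusted p = 0.00969 with edgeR). In none of the 3 did the groups overlap. The GSTP1 call was lost without irradiated library 1 (adjusted p = 0.0547, edgeR). GSTO1, an omega-class transferase, averaged 212 ± 10.7 and 171 ± 12.6 CPM (SD, n = 3 each; −0.31, adjusted p = 0.0588, edgeR). It passed with DESeq2 (adjusted p = 0.0272), with RLE size factors (0.0495, edgeR) and without control 3 (0.0283, edgeR), lower in each. With the replicate number as a block it passed as well, also lower (adjusted p = 0.0347, edgeR).

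SOD1 and SOD2, the cytosolic and mitochondrial superoxide dismutases, had log2 fold changes of opposite sign on the TMM scale. With library totals alone both were positive (0.13 and 0.69). With the length-trend offset described below SOD1 gave 0.01 and SOD2 −0.03. SOD1, on chromosome 21 from 31659622 to 31668931, measured 586, 600.5 and 550.4 CPM in controls and 432, 498 and 460.5 CPM in irradiated libraries, without overlap. It fell by 0.32 log2 units (SE 0.113, adjusted p = 0.0473 with edgeR), and lost the call without control 1 (adjusted p = 0.139), control 2 (0.115), irradiated library 1 (0.17) or irradiated library 3 (0.155), all from edgeR. SOD2 averaged 157 ± 1.25 and 185 ± 11.9 CPM (SD, n = 3 each), also without overlap (log2 fold change 0.24 ± 0.113 SE, adjusted p = 0.121 with edgeR). PARK7 encodes DJ-1, a protein that responds to oxidants and is tied to NRF2 stability. It measured 481, 539 and 431 CPM in controls and 294, 360 and 289 CPM in irradiated libraries, without overlap, and fell by 0.62 log2 units (SE 0.128, adjusted p = 0.0028 with edgeR).

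The ferritin chains differed from each other. FTL, the light chain, lies on chromosome 19 from 48965301 to 48966878 and measured 5451, 5816 and 4040.1 CPM in controls and 2028, 2883 and 2413 CPM in irradiated libraries. Every irradiated library was below every control. FTL fell 2.09-fold (log2 fold change −1.06 ± 0.159 SE, adjusted p = 0.000653 with edgeR), and was called in all 13 alternatives.

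FTH1, the heavy chain, which oxidizes iron, lies on chromosome 11 from 61959718 to 61967660. It measured 2587, 1848 and 2154 CPM in controls and 2508, 2273 and 2372 CPM in irradiated libraries. The irradiated values lay inside the control range (log2 fold change 0.12 ± 0.134 SE, adjusted p = 0.549 with edgeR). Pseudogenes of FTH1 held 0 to 3 counts per library and those of FTL 3 to 8, and how reads were divided between a gene and its copies was not tested.

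Both chains carry an iron-responsive element near the start of the mRNA, where iron regulatory proteins bind and hold back translation. The 28 bases around its loop are shown because the chains share it and differed in their RNA, with the loop CAGTGN in capitals, on the coding strand (GRCh38, GENCODE release 29; loop at chr11:61967585-61967590 on the minus strand and chr19:48965347-48965352 on the plus strand).
FTH1: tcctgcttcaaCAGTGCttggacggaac
FTL: tcttgcttcaaCAGTGTttggacggaac
In each gene the annotated transcript with the most counts was searched over its first 250 bases, and other isoforms were not. The pattern was CAGTGN after a C and 5 bases, with those 5 able to pair with the 5 that follow. The last base of the loop could not be G. This pattern was found in 6 of 10668 genes (0.0562%), the ferritin chains among them. The match describes the letters and says nothing about regulation in these cells.

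The 5 genes outside the filter were not tested in the main comparison. CAT, catalase, averaged 16.5 ± 2.24 CPM in controls and 12.1 ± 1.19 CPM in irradiated libraries (SD, n = 3 each), without overlap. It has 1 transcript with enough counts, and gave −0.47 on the log2 scale (adjusted p = 0.116, edgeR) when such genes were admitted. TXNIP, the inhibitor of thioredoxin, gave −0.21 (adjusted p = 0.56, edgeR) and SRXN1, which restores over-oxidized peroxiredoxins, −0.37 (adjusted p = 0.291, edgeR) in the same setting. ME1 and AKR1C1 had 0 to 6 counts per library, too few to show a difference.

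Scaling moved these values together. With library totals alone the all-gene median went from 0.08 to 0.53 (log2), and 8 of the 32 genes were higher and 5 lower, against 32.8% and 3.20% of all genes. FTL, PRDX3, PRDX4, GPX4 and TXN were lower under that scaling as well, and KEAP1, GSR and NFE2L2 higher. The other 5 on the higher side were SOD2 (0.69, adjusted p = 0.0018), FTH1 (0.57, adjusted p = 0.008), HMOX1 (0.59, adjusted p = 0.0367), GSS (0.52, adjusted p = 0.00862) and GPX1 (0.32, adjusted p = 0.00666), all from edgeR. PRDX1 (0.05), PRDX5 (0.04) and SOD1 (0.13) took the opposite sign without passing. These 5 genes, FTL, PRDX3, PRDX4, GPX4 and TXN, were the members called in every one of the 13 alternatives.

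**Figure D2:**
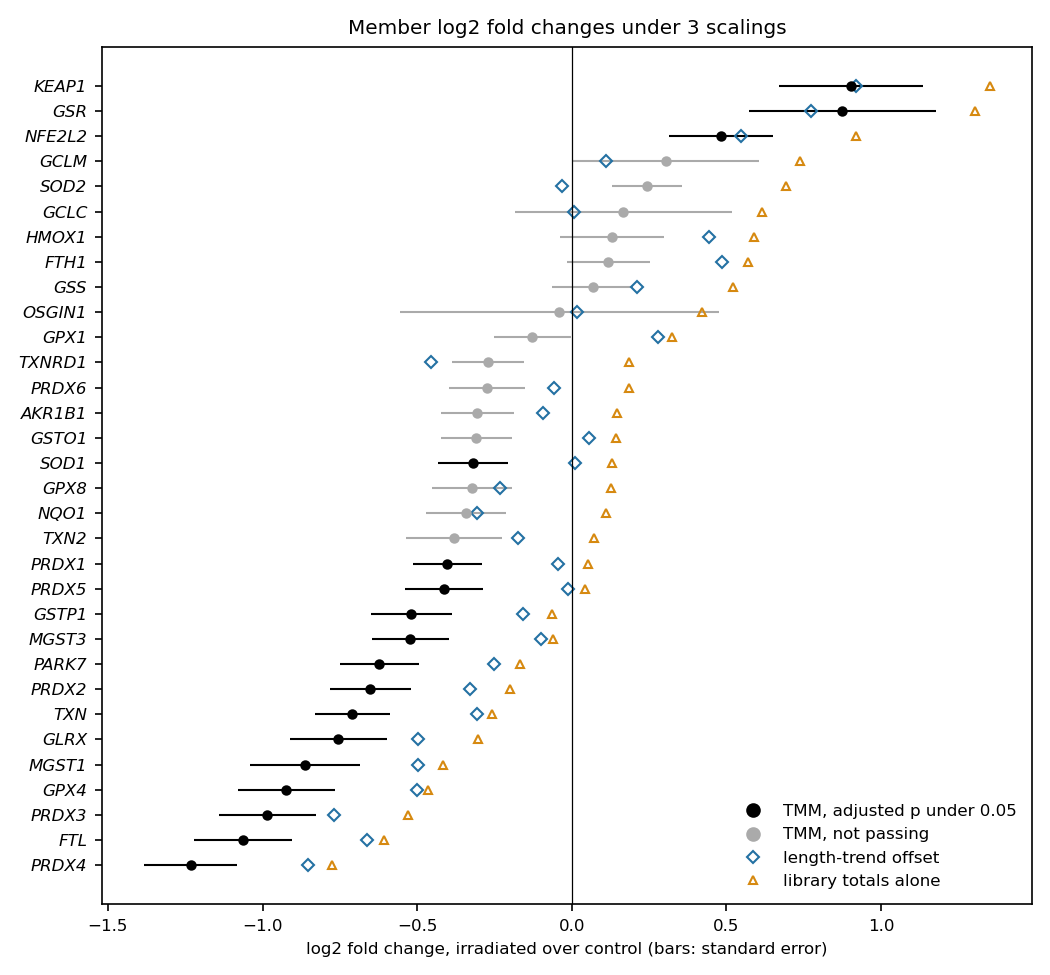
Each row is a gene, with its log2 fold change (irradiated over control) on the TMM scale as a filled circle, black if it passed and grey if not, and its standard error as a bar. Blue diamonds show the fit with the length-trend offset and orange triangles that with library totals alone, under which PRDX1, PRDX5 and SOD1 lie above 0.

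Transcript length moved with the result. The count-weighted annotated length per library was 1511 to 1608 bases in controls and 1708 to 1803 bases in irradiated libraries, and the median over the 32 genes was 1299.8 bases, against 2692 for all genes. Of genes under 1000 bases, 37.0% fell, with a median log2 fold change of −0.44, and of the members in that range 8 of 11 fell, with a median of −0.62. Between 1000 and 1500 bases 32.3% of all genes and 5 of 6 members fell. From 3000 bases upward 3.93% of all genes fell and 14.7% rose, and of 5 members GSR rose.

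After each library's smooth trend of log counts on length was taken out by an offset, 4 members were higher and 9 lower, against 9.53% and 9.97% of all genes. FTL (−0.66, adjusted p = 0.00161), PRDX4 (−0.85, adjusted p = 0.000961), PRDX3 (−0.77, adjusted p = 0.00275) and GPX4 (−0.50, adjusted p = 0.00928) stayed lower in this edgeR fit. TXNRD1 became lower (−0.46, adjusted p = 0.012, edgeR), and FTH1 (0.49, adjusted p = 0.0142, edgeR) and GPX1 (0.28, adjusted p = 0.0326, edgeR) became higher. MGST3, GSTP1, PARK7, PRDX1, PRDX5 and SOD1 no longer passed, nor did GSR (0.77, adjusted p = 0.0829, edgeR). The part of length in these results was not tested beyond this fit.

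**Figure D3:**
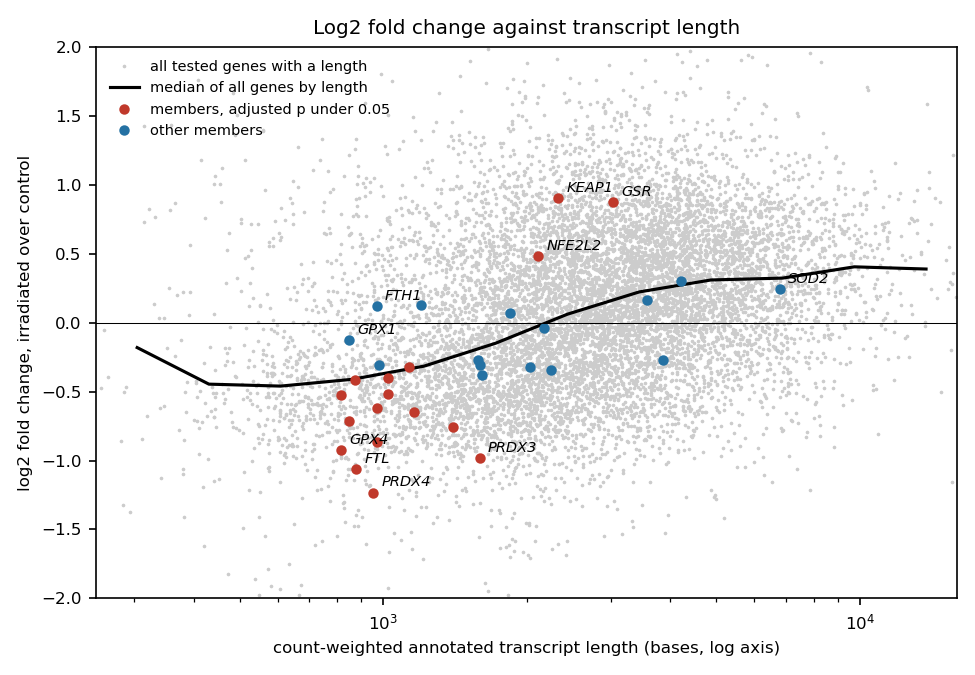
Each grey point is a tested gene, placed by its count-weighted annotated transcript length (log axis) and its log2 fold change. The black line is the median of all genes by length, and genes beyond the axis limits are not drawn. Members that passed are red and the others blue. FTL, PRDX4, PRDX3 and GPX4 lie below the median line of genes of their length, and FTH1 and GPX1 above it.

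Ratios of partner genes within a library do not depend on the scaling. The raw count ratio of FTH1 to FTL was 0.475, 0.318 and 0.533 in controls and 1.24, 0.788 and 0.983 in irradiated libraries. Every irradiated library was above every control, and the mean log2 ratio differed by 1.19, a 2.28-fold shift (two-sided exact permutation p = 0.1, the smallest that 3 against 3 allows; adjusted over 6 ratios, p = 0.2). Leaving out each library in turn gave differences of 0.97 to 1.35. Among transcripts annotated as protein coding the difference was 1.41. That subset leaves out FTL ENST00000718269, which release 29 does not hold. It also leaves out FTH1 ENST00000534180 and ENST00000532829, annotated as nonsense-mediated decay. The counts barely tell these models from ones it keeps, so 1.41 is not a separate check.

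SOD2 to SOD1 was 0.266, 0.259 and 0.287 in controls and 0.407, 0.365 and 0.431 in irradiated libraries, also without overlap (log2 difference 0.56, exact p = 0.1, adjusted p = 0.2). The count-weighted length is 6793 bases for SOD2 and 1130 for SOD1. With the length-trend offset SOD2 gave −0.03 and SOD1 0.01 (log2), and the part of length in this ratio was not tested. TXNIP to TXN went from 0.0101 ± 0.00164 to 0.0146 ± 0.00225 (SD, n = 3 each; exact p = 0.1, adjusted p = 0.2), without overlap. The groups overlapped for NFE2L2 to KEAP1 (log2 difference −0.39, exact permutation p = 0.4), GCLC to GCLM (−0.03, exact permutation p = 1) and PRDX1 to SRXN1 (−0.03, exact permutation p = 0.7).

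**Figure D4:**
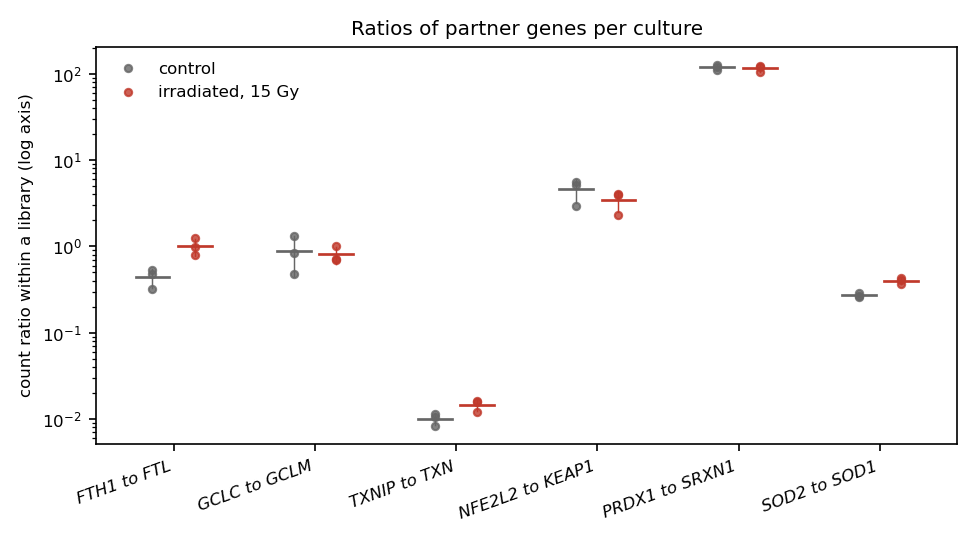
Each point is the ratio of raw counts of 2 partner genes within 1 library (log axis), grey for control and red for irradiated, with the mean as a horizontal line and the SD of 3 cultures as a vertical line. The FTH1 to FTL ratio averaged 0.442 in controls and 1.00 in irradiated libraries.

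At transcript level, 209 transcripts of the 32 genes were tested among 74843. At the limits of an adjusted p below 0.05 and a change of over 1 log2 unit, 6 were higher and 20 lower, in 11 genes, against 3.36% and 4.33% of all transcripts. The lower ones were 6 of GPX4, 3 each of PRDX4, AKR1B1 and FTH1, 2 of FTL, and 1 each of PRDX3, MGST1 and PARK7. The 3 AKR1B1, 3 FTH1 and 1 PARK7 transcripts among them averaged 1.17 to 2.17 CPM in controls and are a minor part of each gene. Of GPX4, ENST00000354171, ENST00000611653, ENST00000706713 and ENST00000588919 averaged 303, 302, 297 and 289 CPM in controls. ENST00000593032 and ENST00000706714 averaged 146 and 147 CPM. The counts barely tell the models within each of these GPX4 groups apart, so they are not separate changes. The higher ones were 4 of GPX1, 1 of KEAP1 and 1 of NFE2L2. Those of GPX1 averaged 9.15 to 11.1 CPM in controls and held 1.01 to 1.22% of the gene, against 2.66 to 2.83% in irradiated libraries. The counts barely tell these 4 GPX1 models apart, so they are not separate changes either. The GPX1 gene itself did not pass. The KEAP1 and NFE2L2 transcripts averaged 2.69 and 2.65 CPM in controls.

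FTL's transcripts, ENST00000331825 and ENST00000718269, split the gene's counts 49.6% and 50.4% in both groups, so the counts do not tell these models apart. The full-length PRDX4 transcript ENST00000379341 fell from 130 ± 25.2 to 48.1 ± 8.29 CPM (SD, n = 3 each; log2 fold change −1.44, adjusted p = 2.66e-15, edgeR). The main PRDX3 transcript ENST00000298510, which carried over 98% of the gene in each library, fell by 1.05 (log2, adjusted p = 1.5e-08, edgeR).

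Isoform usage was measured as the isoform fraction (IF), the share of a gene's counts on a transcript, and dIF as irradiated minus control. A switch needs an adjusted p under 0.05 from edgeR's diffSpliceDGE and an absolute dIF of at least 0.1. A single member isoform switched, PRDX6 ENST00000470017, against 0.269% of all isoforms toward higher usage and 0.135% toward lower. Its IF was 11.7, 8.47 and 17.8% in controls and 26.8, 22.5 and 26.4% in irradiated libraries (dIF 0.125, adjusted p = 0.00098, edgeR diffSpliceDGE), with no overlap and control 3 the highest control. The protein-coding transcript ENST00000340385 went from 87.0 ± 4.70 to 74.6 ± 2.15% (SD, n = 3 each; dIF −0.123, adjusted p = 0.755, edgeR diffSpliceDGE).

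ENST00000470017 is annotated as a processed transcript of 859 bases. Its first exon begins inside an intron of ENST00000340385, and these 127 bases (chr1:173481199-173481325, GRCh38, plus strand) are shown in capitals because they tell the isoforms apart.
PRDX6: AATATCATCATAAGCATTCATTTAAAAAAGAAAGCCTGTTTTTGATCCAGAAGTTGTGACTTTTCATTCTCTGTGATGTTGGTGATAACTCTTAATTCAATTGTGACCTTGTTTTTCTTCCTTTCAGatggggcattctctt

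NQO1 had the largest absolute dIF among the members, without passing. Its most abundant transcript ENST00000320623 held 60.6, 65.2 and 52.1% of the gene in controls and 38.5, 45.2 and 41.2% in irradiated libraries (dIF −0.177, adjusted p = 0.143, edgeR diffSpliceDGE). Limma's diffSplice gave an adjusted p of 0.000927. Its transcript count fell by 0.91 on the log2 scale (adjusted p = 1.33e-06, edgeR), while the summed gene did not pass.

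The shorter ENST00000439109, chosen after its values were seen, rose in usage from 7.09, 5.17 and 10.9% to 16.9, 13.7 and 15.8% (dIF 0.078, adjusted p = 0.00586, edgeR diffSpliceDGE). It lacks exons 4 and 5 of ENST00000320623, and ENST00000379047 lacks exon 5 alone. Both exons are shown, in capitals between 15 flanking bases of the mRNA (GRCh38, minus strand, exon 4 at chr16:69714964-69715077 and exon 5 at chr16:69713028-69713129).
NQO1 exon 4: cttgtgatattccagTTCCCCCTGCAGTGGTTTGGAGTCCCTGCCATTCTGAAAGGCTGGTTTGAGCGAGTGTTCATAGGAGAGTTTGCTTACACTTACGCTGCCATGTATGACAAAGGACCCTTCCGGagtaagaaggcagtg
NQO1 exon 5: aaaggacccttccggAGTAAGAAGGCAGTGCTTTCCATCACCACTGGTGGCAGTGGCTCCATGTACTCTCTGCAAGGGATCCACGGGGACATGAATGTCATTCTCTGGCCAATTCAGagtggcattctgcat
These exons are 114 and 102 bases long, and the counts tie them to the full-length transcript only as far as the quantification assigned each read to a model.

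GSTO1 showed the same kind of contrast. Its main transcript ENST00000369713 held 77.6, 80.6 and 71.1% in controls and 62.7, 65.8 and 62.6% in irradiated libraries (dIF −0.127, adjusted p = 0.503, edgeR diffSpliceDGE). ENST00000369710, chosen after its values were seen, rose from 4.07, 4.31 and 6.59% to 10.9, 9.87 and 10.6% (adjusted p = 0.00016, edgeR diffSpliceDGE). It lacks the exon of 99 bases shown in capitals (chr10:104262979-104263077, GRCh38, plus strand).
GSTO1 exon 4: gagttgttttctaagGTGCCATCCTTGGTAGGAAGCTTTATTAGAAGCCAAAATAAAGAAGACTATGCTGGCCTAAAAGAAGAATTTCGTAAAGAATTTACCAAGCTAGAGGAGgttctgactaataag

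PRDX4 ENST00000439422, also chosen after its values were seen, rose in usage from 5.3, 5.24 and 8.82% to 18.3, 15.0 and 16.0% (dIF 0.0996, just under the limit of 0.1, adjusted p = 0.00014, edgeR diffSpliceDGE). Its own count averaged 8.98 ± 1.42 and 9.60 ± 0.665 CPM (SD, n = 3 each), so its larger share went with the lower count of the full-length transcript. It holds an internal exon of 46 bases that the full-length transcript lacks (capitals, chrX:23686002-23686047, GRCh38, plus strand).
PRDX4: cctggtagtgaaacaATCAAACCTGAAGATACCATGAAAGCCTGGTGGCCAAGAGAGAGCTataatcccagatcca

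Other isoforms with an absolute dIF of at least 0.1 and no passing adjusted p in edgeR's diffSpliceDGE were GSS ENST00000651619 (−0.137), GSTP1 ENST00000398606 (−0.119), SOD1 ENST00000270142 (−0.108), GPX8 ENST00000503787 (−0.105), TXN2 ENST00000216185 (−0.108) and TXN2 ENST00000416967 (0.106). Limma's diffSplice passed the first 4 of these (adjusted p = 0.00202, 2.42e-06, 0.00292 and 0.00973) and neither TXN2 isoform. With GSTO1 ENST00000369713, NQO1 ENST00000320623 and both PRDX6 isoforms it called 8 member isoforms in 7 genes, against 0.442% and 0.774% of all isoforms toward higher and lower usage. At an adjusted p under 0.05 with no limit on dIF, edgeR gave 38 of 209 member isoforms, in 18 genes, of which 37 rose in usage and 1 fell, against 3.53% and 0.911% of all isoforms. GPX1 held 7 of these isoforms, among them the 4 models called higher at transcript level, which the counts barely tell apart. Isoforms of a gene share its total, so the 38 are not independent of each other. In diffSpliceDGE each transcript's change is set against that of its whole gene, to which an abundant transcript contributes most. A main transcript with lower usage, such as GSTP1 ENST00000398606, can therefore fail to pass. The 37 and 1 thus do not measure the direction of usage.

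The heavy chain FTH1 was among these 18 genes. ENST00000620041 rose in usage from 9.57, 13.6 and 16.3% to 19.2, 19.1 and 19.6%. ENST00000526640 rose from 6.96, 10.3 and 12.7% to 15.8, 15.9 and 15.8% (adjusted p = 0.0161 and 0.00265, edgeR diffSpliceDGE). Both were chosen after their values were seen, and in both control 3 was the control nearest to the irradiated libraries. Of the most abundant models, ENST00000273550 held 25.7 ± 2.12% in controls and 21.7 ± 0.0660% in irradiated libraries (SD, n = 3 each). ENST00000534180 and ENST00000532829 held 25.2 and 25.1% in controls and 21.3 and 21.2% in irradiated libraries, so the counts barely tell these models apart.

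In the 28 member genes of at least 10 CPM, the most abundant transcript had a lower IF after irradiation in 27, with NFE2L2 as the exception, and the groups did not overlap, on the lower side, in 24. The same held for 81.4% and 47.9% of 6171 genes of that level. The median change was −7.42 percentage points over the 28 members and −2.27 over all such genes. Retained-intron transcripts of the members held 2.38 to 2.74% of their counts without irradiation and 3.11 to 3.23% with it, and those of all genes 8.47 to 8.99% and 9.34 to 9.69%. Annotated length per library moved with usage, and its part was not tested.

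**Figure D5:**
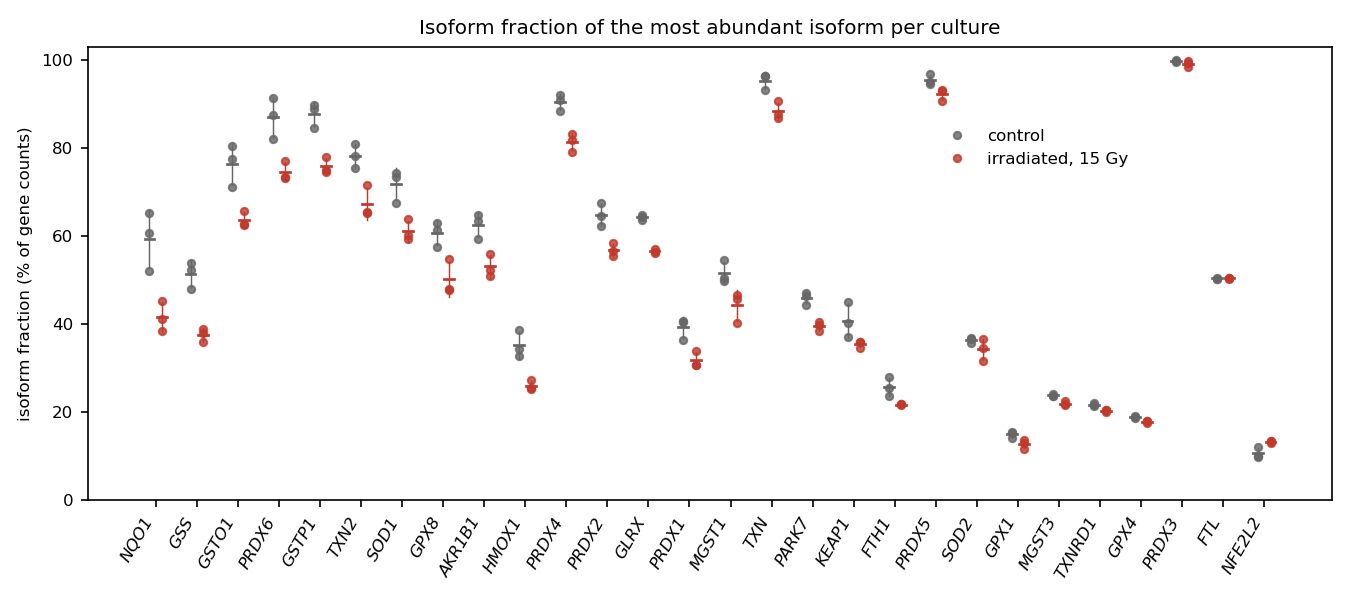
Each point is the isoform fraction, in percent of the gene's counts, of a gene's most abundant transcript in 1 library, grey for control and red for irradiated, with the mean and the SD of 3 cultures, for the 28 members of at least 10 CPM. NQO1 shows the widest gap, and FTL's fraction stays at 50.3 to 50.5% in every library.

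RefSeq promoter windows (GRCh38.p14, 250 bases before to 50 after each start) were available for 29 of the 37 genes. The core of the antioxidant response element was searched on both strands as TGACNNNGC or its reverse complement GCNNNGTCA. It was present in 9 of 42 member windows (21.4%) and in 13.3% of all 35116 windows, and in 8 of the 29 genes against 16.1% of 27305 genes. The 8 genes were PARK7, GCLM, ME1, GSTO1, GSTP1, MGST1, TXNRD1 and KEAP1. The windows are shown for 5 of them, because they hold the letters NRF2 is known to bind and the genes' calls differed. Each is 60 bases on the gene's strand with 1 match in capitals, at chr19:10502791-10502850 (KEAP1), chr1:93909431-93909490 (GCLM), chr11:67583721-67583780 (GSTP1), chr1:7961603-7961662 (PARK7) and chr12:104215655-104215714 (TXNRD1).
KEAP1: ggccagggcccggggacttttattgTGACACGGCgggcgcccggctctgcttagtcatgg
GCLM: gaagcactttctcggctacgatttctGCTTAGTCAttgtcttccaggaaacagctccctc
GSTP1: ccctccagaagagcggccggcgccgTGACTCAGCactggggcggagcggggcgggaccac
PARK7: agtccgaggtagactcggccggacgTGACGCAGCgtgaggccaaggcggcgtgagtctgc
TXNRD1: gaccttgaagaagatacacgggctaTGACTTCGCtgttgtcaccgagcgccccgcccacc
The KEAP1 window also holds GCTTAGTCA, left in lower case. Of the 7 tested genes with the motif, KEAP1 rose and 3 (PARK7, GSTP1 and MGST1) fell, and of the 17 tested genes whose windows lacked it, NFE2L2 rose and 9 fell. These are matches of letters, not sites shown to be bound, and they describe these windows only.

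A wider list of 98 genes around the same systems had 77 tested genes, of which 10 rose and 17 fell, against 11.6% and 14.1% of all genes tested, with a median log2 fold change of 0.04. In the order of their adjusted p, TALDO1, a transaldolase of the pentose phosphate pathway, fell by 0.91 on the log2 scale (adjusted p = 0.000401), SLC3A2, the heavy chain of the cystine transporter, fell by 0.78 (adjusted p = 0.000852), HMOX2, the constitutive heme oxygenase, fell by 0.75 (adjusted p = 0.000995), and NFE2L1, a relative of NRF2 that controls proteasome genes, rose by 0.89 (adjusted p = 0.00161), all from edgeR. NRF2 partners and turnover genes held 3 that rose and 1 that fell of 11 tested. Genes of NADPH supply held 1 and 2 of 7, glutathione and drug handling 1 and 5 of 21, other thioredoxin and peroxide genes 4 and 7 of 21, and iron and heme genes 1 and 2 of 17, in the same order.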

How the data were processed

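The authors deposited integer read counts for each transcript, made by aligning Nanopore cDNA reads to GRCh38 with minimap2 and quantifying with Salmon. The sources used here give no versions of these tools, annotation release or strand handling, and no step collapsing reads by molecular identifiers is named. Groups came from the treatment labels.

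A gene was kept where 3 or more libraries reached 10 counts and 2 or more of its transcripts reached 3 counts, the paper's filter. Counts were summed per gene and tested on all 11118 genes with edgeR 4.0.16 (TMM, glmQLFit robust, glmQLFTest) in R 4.3.3, adjusted by Benjamini-Hochberg over all features. The SE is the size of the log2 change over the root of F. Usage was tested with diffSpliceDGE, with diffSplice of limma 3.58.1 as an alternative. DESeq2 1.42.0 was an alternative for gene and transcript counts only. The scripts were tested on simulated data. GENCODE release 29 gave lengths and classes and holds 70.2% of kept transcripts. IF was taken from counts not divided by length. The 37 genes and all lists were chosen with earlier results of these data known. Every gene of the 37 with an adjusted p under 0.05 is given in every library, the others of at least 10 CPM by means, and isoforms if switched or with an absolute dIF of at least 0.1. Depth limits genes under 10 CPM. The values of 1 cell type marker are not reported here.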

Additional observations from a re-analysis of the deposited data

How the results depend on the processing

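DESeq2 also used its own size factors. Of 758 comparisons of a single value with its value under an alternative, 644 kept direction and side of the threshold, 49 lost a call, 40 gained one and 25 changed sign. With library totals alone, members higher went from 3 to 8, members lower from 14 to 5, genes of the wider list from 10 to 31 higher and from 17 to 2 lower, and member transcripts from 6 to 34 higher and from 20 to 2 lower. Over all genes that scaling moved higher calls from 1292 to 3643 and lower calls from 1567 to 356. PRDX5 (0.042), PRDX1 (0.051), TXN2 (0.071), NQO1 (0.11), GPX8 (0.13), SOD1 (0.13), GSTO1 (0.14), AKR1B1 (0.15), PRDX6 (0.185), TXNRD1 (0.185), GPX1 (0.325) and OSGIN1 (0.42) then took positive log2 fold changes. With the length-trend offset members lower went to 9 and differentially expressed members to 0, and SOD1 (0.01), GSTO1 (0.057), GPX1 (0.28), OSGIN1 (0.016) and SOD2 (−0.031) changed sign. Over all genes that fit gave 1109 lower and 541 differentially expressed. Without the filter on low counts 12 of 37 members were lower, against 1585 of 31768 genes, with PRDX5 (adjusted p = 0.0513) and SOD1 (0.135, edgeR) no longer passing. DESeq2 gave 13 lower member transcripts, 17 lower and 2 higher members. Isoforms switched numbered 1 in the main test, 8 with limma's diffSplice, 4 with fractions from length-divided counts (over transcripts with a known length), and 2 with at least 10 counts in 3 libraries. The causes of these shifts were not tested.

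Leaving out each library in turn gave 0 to 3 members higher, 10 to 19 lower and 1 to 5 differentially expressed, 4 to 12 genes of the wider list higher and 10 to 18 lower, 3 to 15 member transcripts higher and 7 to 22 lower, and 1 to 5 isoforms switched. Over all 11118 genes the same fits gave 694 to 1737 higher, 977 to 1920 lower and 387 to 1215 differentially expressed. Values that changed sign in these fits ran from −0.501 to 0.167 for OSGIN1, −0.017 to 0.171 for GSS, −0.101 to 0.389 for GCLC, −0.029 to 0.177 for PRDX4 ENST00000439422, −0.409 to 0.331 for the log2 ratio of GCLC to GCLM, and −0.078 to 0.041 for that of PRDX1 to SRXN1. Deviations of log CPM from the group means were correlated across genes of at least 10 CPM. Same-numbered libraries gave r of −0.03, 0.273 and 0.1, and the deviations of control 3 correlated best with those of irradiated library 1 (0.242). With 3 libraries per group these values cannot decide whether the numbers pair the cultures. With the number as a replicate block, members stayed at 3 higher and went to 17 lower, and isoforms switched to 3. All genes went from 1292 to 1549 higher and from 1567 to 1682 lower.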
